A study of Mus musculus with 6 samples.

Results

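Kallikreins, the membrane protease matriptase and the kallikrein inhibitor LEKTI were followed in mouse epidermis that had lost Sox4, Sox11 or both. The 10 genes were chosen by name: Klk5, Klk6, Klk7, Klk8, Klk10, Klk11, Klk13, Klk14, Spink5 and St14, out of 21368 gene symbols that could be placed on the arrays. Each of the 10 had 1 probe. The samples were dorsal epidermis of embryos at embryonic day 16 (E16), peeled from the dermis, and the question was how the epidermal transcriptome depends on the pair of SOX factors. Each of 6 arrays set a knockout against its wild-type littermates in opposite dyes, starting from 25 ng total RNA, with 2 arrays for the Sox4 conditional knockout (Sox4cKO), 2 for the Sox11 conditional knockout (Sox11cKO) and 2 for the conditional knockout of both (dcKO). Cre was driven by the Krt14 promoter, so deletion was directed to keratinocytes, and the labels give the strain 129SvEx:C57BL/6 for knockout and wild type alike. The alleles carried by the wild-type littermates and whether animals were pooled were not given in the sources used here. Knockout RNA was in Cy5 on every replicate 1 array and in Cy3 on every replicate 2 array.

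Kallikreins are secreted serine proteases that granular keratinocytes make as inactive proenzymes. Released into the stratum corneum, they cut the corneodesmosome proteins that hold corneocytes together (corneodesmosin, desmoglein 1 and desmocollin 1), which lets the outermost cells be shed. Klk5 can activate itself and Klk7, and Klk14 and Klk8 belong to the same cascade. LEKTI, the product of Spink5, inhibits some but not all of these proteases. Its loss in people causes Netherton syndrome, with premature shedding and a failing barrier. St14 encodes matriptase, a membrane serine protease that acts with prostasin (Prss8) and is needed for barrier formation.

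The kallikrein members lie side by side on chromosome 7. In the RefSeq annotation of build GRCm38.p6, 12 kallikrein genes follow each other from Klk14 to Klk15 with 0 other protein-coding genes between them, in the order Klk14, Klk13, Klk12, Klk11, Klk10, Klk9, Klk8, Klk7, Klk6, Klk5, Klk4 and Klk15. RefSeq gave 10 promoter windows for 8 of the members, each 300 bases long with 250 bases before the gene start. The windows of the kallikreins that rose in dcKO (Klk7 and the neighbouring non-member Klk9) are shown first, followed by those of the other members in which a searched motif was found. The motifs were the SOX core ACAAAG, the AP-1 site TGANTCA and the AP-2 site GCCNNNGGC, read on both strands, and their letters are in capitals.

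Klk7, chr7:43811044-43811343, plus strand: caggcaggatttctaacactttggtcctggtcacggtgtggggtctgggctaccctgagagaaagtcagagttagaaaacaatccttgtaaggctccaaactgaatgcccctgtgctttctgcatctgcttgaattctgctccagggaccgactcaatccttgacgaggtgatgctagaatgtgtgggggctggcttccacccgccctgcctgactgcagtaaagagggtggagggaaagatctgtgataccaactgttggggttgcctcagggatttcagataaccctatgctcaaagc
Klk9, chr7:43791641-43791940, plus strand: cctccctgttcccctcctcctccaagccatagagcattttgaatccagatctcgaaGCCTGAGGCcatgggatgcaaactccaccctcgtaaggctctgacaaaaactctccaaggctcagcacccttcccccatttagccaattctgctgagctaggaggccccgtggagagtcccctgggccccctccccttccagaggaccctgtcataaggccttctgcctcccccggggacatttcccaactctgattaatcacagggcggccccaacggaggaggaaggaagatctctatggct
Klk8, chr7:43797327-43797626, plus strand: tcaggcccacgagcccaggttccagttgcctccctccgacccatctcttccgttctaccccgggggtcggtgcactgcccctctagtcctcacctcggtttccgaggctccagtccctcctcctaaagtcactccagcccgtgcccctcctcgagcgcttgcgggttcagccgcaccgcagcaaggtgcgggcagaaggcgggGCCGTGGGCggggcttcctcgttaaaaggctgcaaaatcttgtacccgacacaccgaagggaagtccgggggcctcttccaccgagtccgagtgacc
Klk6, chr7:43824294-43824593, plus strand: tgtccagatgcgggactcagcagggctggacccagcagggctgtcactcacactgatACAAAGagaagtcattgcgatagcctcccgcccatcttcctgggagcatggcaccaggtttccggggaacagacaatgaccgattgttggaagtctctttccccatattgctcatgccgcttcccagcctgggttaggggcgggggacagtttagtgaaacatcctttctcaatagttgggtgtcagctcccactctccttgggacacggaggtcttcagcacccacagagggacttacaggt
Klk11, chr7:43776079-43776378, plus strand: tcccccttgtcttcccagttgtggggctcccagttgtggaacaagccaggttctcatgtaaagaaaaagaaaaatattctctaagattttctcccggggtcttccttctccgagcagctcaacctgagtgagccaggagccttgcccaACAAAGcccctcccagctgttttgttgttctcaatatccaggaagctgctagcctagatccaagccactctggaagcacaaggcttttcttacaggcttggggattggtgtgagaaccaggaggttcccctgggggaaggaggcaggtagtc

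ACAAAG occurred once in 1 of the windows of Klk6, on the plus strand with its first base at -193 from the gene start, and once in 1 of the windows of Klk11, at -102. Of all 32851 promoter windows of the same length in the annotation, 18.7% held ACAAAG. GCCNNNGGC occurred at -47 before Klk8 and at -194 before Klk9, and in 16.6% of all windows. TGANTCA, found in 7.81% of all windows, was in none of those of the members, and the Klk7 window held none of these motifs. A match is a stretch of letters and not evidence of binding.

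The level of each gene was read as a log2 intensity in each channel, scaled between arrays, and each change as log2(knockout/wild type) on 1 array. Of the 10 members, 7 were well above background in both channels of all 6 arrays. Klk14 was above background in no channel. Klk6 and Klk7 were above background in neither channel of the Sox11cKO arrays, so no fold change is given for them there. The epidermal origin of the samples showed in the keratins of the basal layer: wild-type levels of Krt5 lay between 15.87 and 16.04 and those of Krt14 between 14.00 and 14.33. Dermal fibroblast markers were present unevenly. On Sox4cKO replicate 1 the median level of 7 such markers was 11.09 in the wild type and 6.72 in the knockout. A lower level in such bulk tissue can mean fewer cells of a type or less RNA in each cell, and these cannot be told apart here.

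The targeted genes came first as a check of the labels. Of 2 Sox4 probes, 1 fell below the background limit in the knockout channel, by at least 3.05-fold in Sox4cKO (limma adjusted p = 0.0284) and by at least 2.998-fold in dcKO (limma adjusted p = 0.00223). The other Sox4 probe changed by -0.42 (adjusted p = 0.802) and -0.82 (adjusted p = 0.0768) in the same comparisons. The Sox11 probes were near background, so they do not check the Sox11 labels.

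Klk7, which encodes a chymotrypsin-like protease of the stratum corneum, was the member that rose in dcKO. Its wild-type levels on the dcKO arrays were 6.94 and 6.15, and its knockout levels were 9.28 and 8.74. Both knockout samples were above all 6 wild-type samples, whose highest level was 8.05. The change was 2.34 on replicate 1 and 2.58 on replicate 2, with a mean of 2.46 ± 0.17 (SD, n = 2), a 5.52-fold rise (SE 0.13, limma adjusted p = 8.6e-05). Over all probes, 0.524% were higher in dcKO at this threshold of adjusted p below 0.05, against 1 of the 10 members, and 0.309% were lower, against 0 members. Klk7 was also among the 0.207% of probes called with a log2 change above 1.5 in addition. With the scanner software's own log ratio, the Klk7 change was 2.82 and did not pass (adjusted p = 0.333), and no probe of any gene was called in dcKO.

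Klk5 and Klk8, 2 trypsin-like kallikreins of the same cascade, were higher in both dcKO samples but did not pass. Klk5 read 12.06 and 11.69 in the wild type and 13.08 and 12.96 in the knockout. Its change was 1.03 and 1.27 on the 2 arrays (mean 1.15 ± 0.17, SD, n = 2; 2.22-fold; limma adjusted p = 0.102). Klk8 read 11.03 and 10.82 in the wild type and 11.66 and 11.52 in the knockout, a change of 0.63 and 0.70 (1.59-fold, limma adjusted p = 0.0752). For both genes the 2 dcKO knockout samples stood above all 6 wild-type samples. The same held for Klk11, Klk13 and Spink5, and for genes such as Krt1, Lor, Krt14 and Dsg1a, so it does not set Klk5, Klk7 and Klk8 apart. Whether Klk5 and Klk8 passed depended on the settings. They passed without background subtraction (limma adjusted p = 0.0221 and 0.00762) and with ComBat in place of the dye coefficient (0.0401 and 0.00906). With dim probes removed Klk8 passed (0.0422) and Klk5 did not (0.107). Both genes passed with a normexp offset of 50 (adjusted p = 0.0170 for Klk5 and 0.00252 for Klk8), and with each of the 4 Sox4cKO and Sox11cKO arrays left out in turn Klk5 passed (0.0129 to 0.0386) and Klk8 did not (0.0772 to 0.0868). With a dcKO array left out neither passed (0.175 and 0.581 for Klk5, 0.498 and 0.572 for Klk8), nor did they without the replicate block (0.211 and 0.149) or with the scanner software's log ratio (0.596 and 0.308).

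Spink5, which encodes the inhibitor LEKTI, read 11.93 and 11.77 in the wild type and 12.51 and 12.27 in the knockout on the dcKO arrays. Its change was 0.58 and 0.51 (1.46-fold, limma adjusted p = 0.534), so both knockouts were higher than their littermates without passing the test. With a dcKO array left out the fitted change was 0.075 or 1.01. Taken from the same array, the change of Klk7 exceeded that of Spink5 by 1.77 and 2.08, and the change of Klk5 exceeded it by 0.45 and 0.76. For Klk8 the same difference was 0.06 and 0.19. It was negative on both arrays for Klk10 (-0.90 and -0.69), Klk6 (-0.31 and -0.61) and St14 (-0.39 and -0.39). For Klk11 (-0.37 and 0.16) and Klk13 (-0.51 and 0.37) it had opposite signs on the 2 arrays. St14 changed by 0.19 and 0.11 (limma adjusted p = 0.793).

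The remaining kallikreins moved little or unevenly in dcKO. Klk13 changed by 0.06 and 0.88 (mean 0.47, limma adjusted p = 0.442) and Klk11 by 0.20 and 0.67 (mean 0.43, adjusted p = 0.355), with replicate 2 the higher for both. Klk10 was lower on both arrays, by -0.32 and -0.19 (adjusted p = 0.783). Klk6 changed by 0.26 and -0.10 (adjusted p = 0.926). Klk14 changed by 0.12 and 0.07 with no channel above background, so it carries no measured level. By sign alone, 8 of the 9 members with a channel above background were higher in dcKO, where 49.97% of all probes were. An unadjusted p below 0.05 was found for 5 of the 10 members (Klk5, Klk7, Klk8, Klk11 and Klk13), against 9.89% of all probes.

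**Figure D1:**
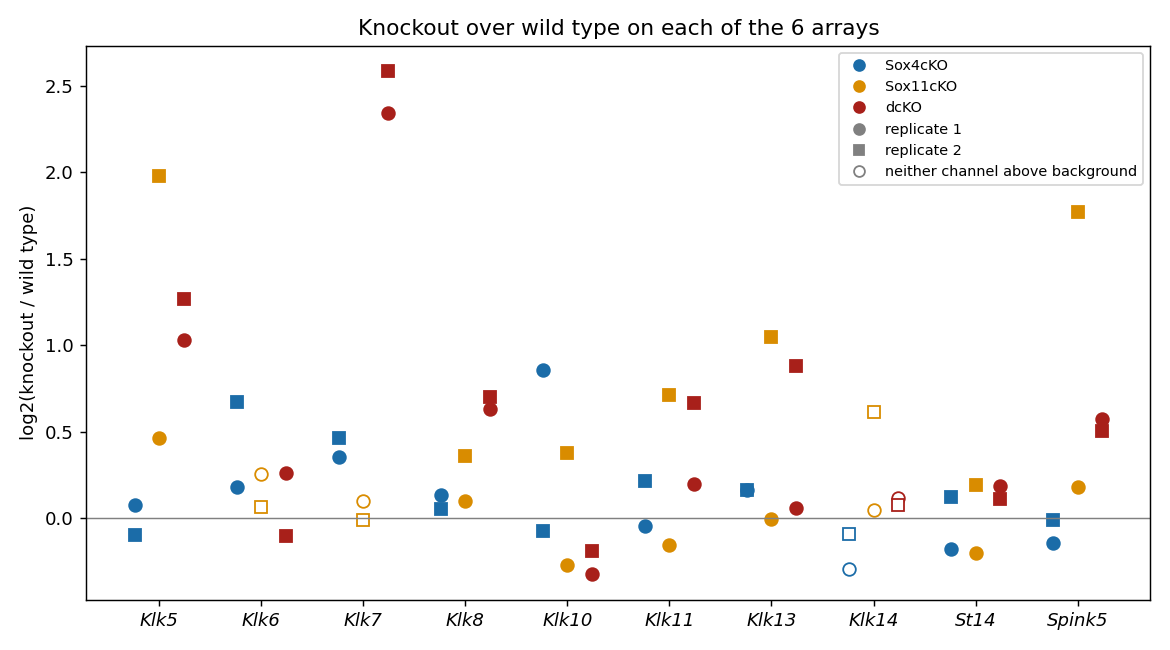
The log2 ratio of knockout to wild type is plotted for each member on each of the 6 arrays, coloured by genotype, with replicate 1 as circles and replicate 2 as squares and open symbols where neither channel was above background. The Klk7 values of dcKO, 2.34 and 2.58, stand above all other values, and Klk5 and Spink5 of Sox11cKO replicate 2 stand at 1.98 and 1.77.

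In dcKO the change did not extend evenly along the cluster. Klk9, the neighbour of Klk8 on the side away from Klk7, rose by 1.23 and 1.79 (mean 1.51, SE 0.13, limma adjusted p = 0.00144). Klk8 between them, and Klk6 and Klk5 beyond Klk7, did not pass. Klk12 and Klk4 changed by -0.10 and 0.35 (adjusted p = 0.918 and 0.467), and Klk15 was above background in no channel.

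**Figure D2:**
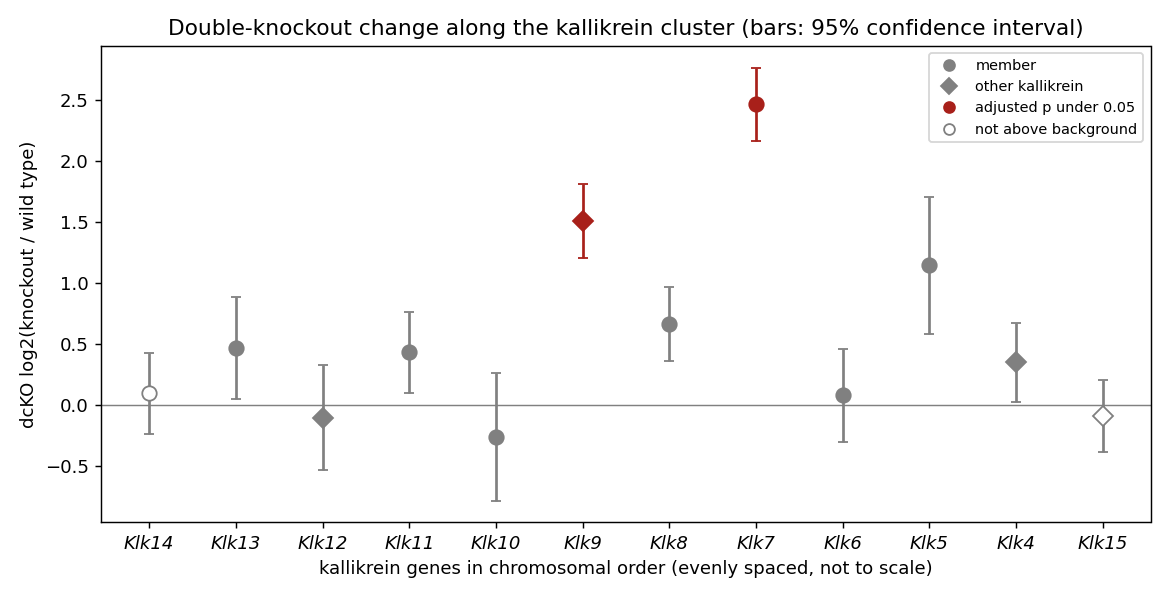
The dcKO change, as log2(knockout/wild type) with its 95% confidence interval, is shown for 12 kallikreins in chromosomal order with even spacing. Members are circles, other kallikreins are diamonds, and red marks an adjusted p below 0.05. Klk7 (2.46) and Klk9 (1.51) are red, and Klk8 (0.66) lies between them.

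The single knockouts gave smaller or less repeatable changes. In Sox4cKO, Klk7 read 8.05 and 6.75 in the wild type and 8.41 and 7.21 in the knockout, a change of 0.35 and 0.47 (limma adjusted p = 0.785). Klk5 changed by 0.08 and -0.10, Klk8 by 0.14 and 0.06, and Spink5 by -0.14 and -0.01, so their knockout and wild-type levels overlapped. Klk10 changed by 0.85 and -0.07, with replicate 1 standing apart, and Klk6 by 0.18 and 0.67. Klk13 changed by 0.16 on both arrays, Klk11 by -0.04 and 0.22, and St14 by -0.18 and 0.12. None of the 10 members passed in limma, 2 of them (Klk6 and Klk7) had an unadjusted p below 0.05 against 6.18% of all probes, and 0.00539% of all probes passed lower and 0% higher in Sox4cKO.

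In Sox11cKO the 2 arrays differed. On replicate 2, Klk5 rose from 8.18 to 10.16, a change of 1.98, and Spink5 from 9.55 to 11.32, a change of 1.77. On replicate 1 the same genes changed by 0.46 and 0.18. Klk13 changed by 0.00 and 1.05, Klk11 by -0.15 and 0.71, and Klk8 by 0.10 and 0.36, each higher on replicate 2. Klk10 changed by -0.27 and 0.38 and St14 by -0.20 and 0.19, with opposite signs on the 2 arrays. None of the 10 members passed, and 3 of them (Klk5, Klk13 and Spink5) had an unadjusted p below 0.05 (Klk5 had a limma adjusted p of 0.585 and Spink5 of 0.694), and 0% of all probes passed, while 7.05% had an unadjusted p below 0.05. Without replicate 1, Klk5 passed with a change of 1.96 (adjusted p = 0.0402), a fit in which the 1 array left was assumed to vary like those of the other genotypes.

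On the Sox11cKO replicate 2 array, Klk5 and Spink5 were low in the wild-type channel and not high in the knockout channel. The knockout levels of Klk5 on the 2 Sox11cKO arrays were 10.18 and 10.16, and those of Spink5 were 11.25 and 11.32. The wild-type levels were 9.71 and 8.18 for Klk5 and 11.07 and 9.55 for Spink5. The large change on replicate 2 thus went with the lowest wild-type level among the 6. Corneodesmosin (Cdsn), a kallikrein substrate, read 9.27 and 5.51 in these wild-type samples and 9.47 and 9.19 in the knockouts.

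**Figure D3:**
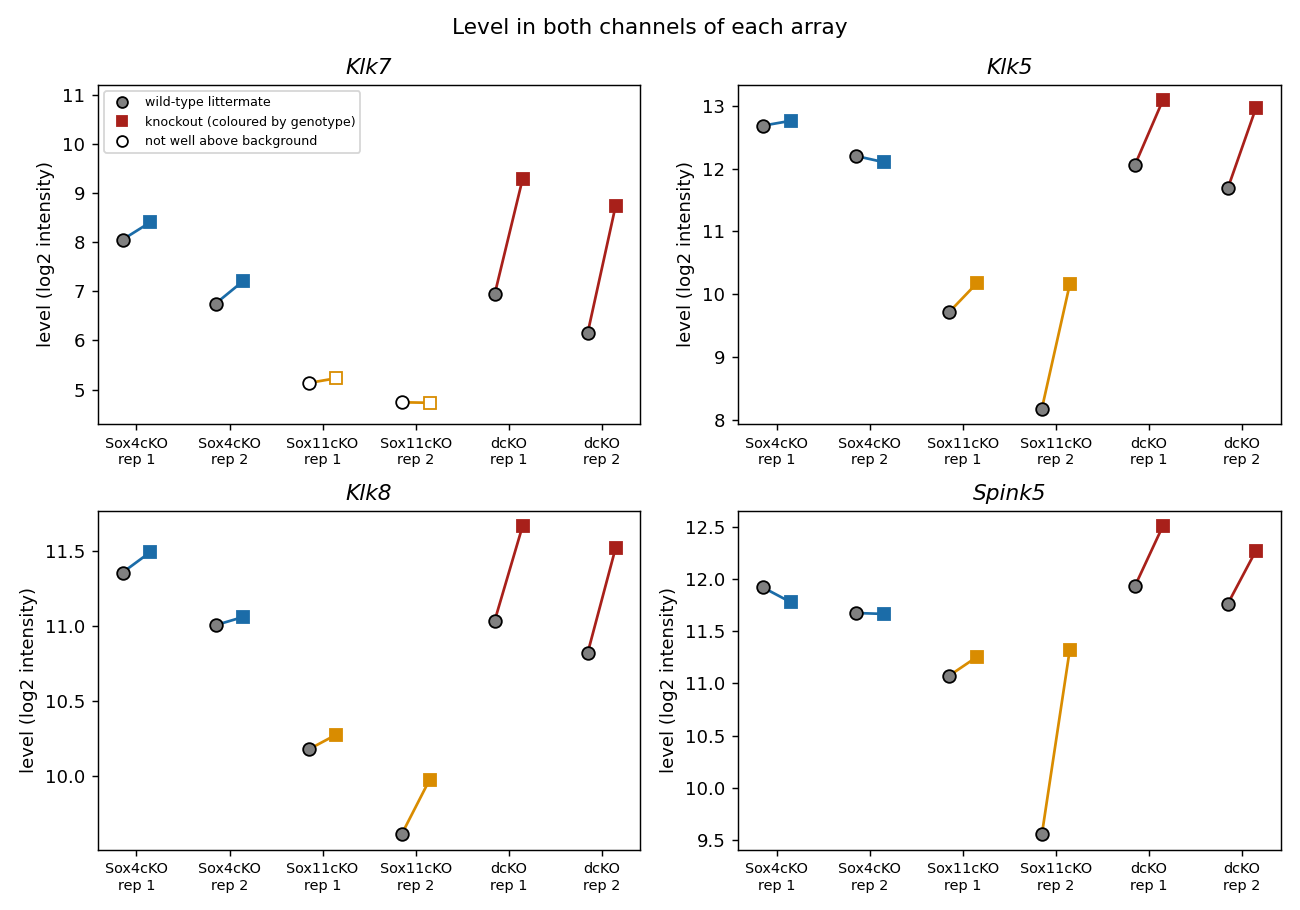
Levels of Klk7, Klk5, Klk8 and Spink5 are given in log2 intensity for each array, with wild type as grey circles joined to knockout as coloured squares, and open symbols for values not well above background. The dcKO lines rise for Klk7 from 6.94 to 9.28 and from 6.15 to 8.74, and the Sox11cKO replicate 2 line rises for Klk5 from 8.18 to 10.16.

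The genotypes were compared with each other through the difference of their changes. Klk7 changed more in dcKO than in Sox4cKO by 2.05 (95% confidence interval 1.63 to 2.48, limma adjusted p = 0.0037), where 0.147% of all probes passed. The difference from Sox11cKO was 2.42 (1.99 to 2.85, adjusted p = 0.00143), where 0.163% of all probes passed. As Klk7 was above background in 0 of the 4 channels of the Sox11cKO arrays, this second difference is set against an unmeasured change. The change in dcKO also exceeded the sum of the changes in Sox4cKO and Sox11cKO by 2.01 (1.49 to 2.53, adjusted p = 0.0205, 0.088% of all probes passing), with the same limit. With each of the 4 Sox4cKO and Sox11cKO arrays left out in turn, this last difference no longer passed, at an adjusted p of 0.0642 to 0.172. These comparisons share the dcKO arrays.

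No other member passed in a comparison between genotypes, and none passed between Sox4cKO and Sox11cKO, where 0.0018% of all probes passed. Klk5 changed more in dcKO than in Sox4cKO by 1.16 (0.37 to 1.95, limma adjusted p = 0.640), and the difference from Sox11cKO was -0.07 (-0.86 to 0.72). For Spink5 the same differences were 0.62 (-0.19 to 1.42) and -0.43 (-1.24 to 0.37). These intervals are wide, and a member that did not pass is not shown to act alike in the genotypes.

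**Figure D4:**
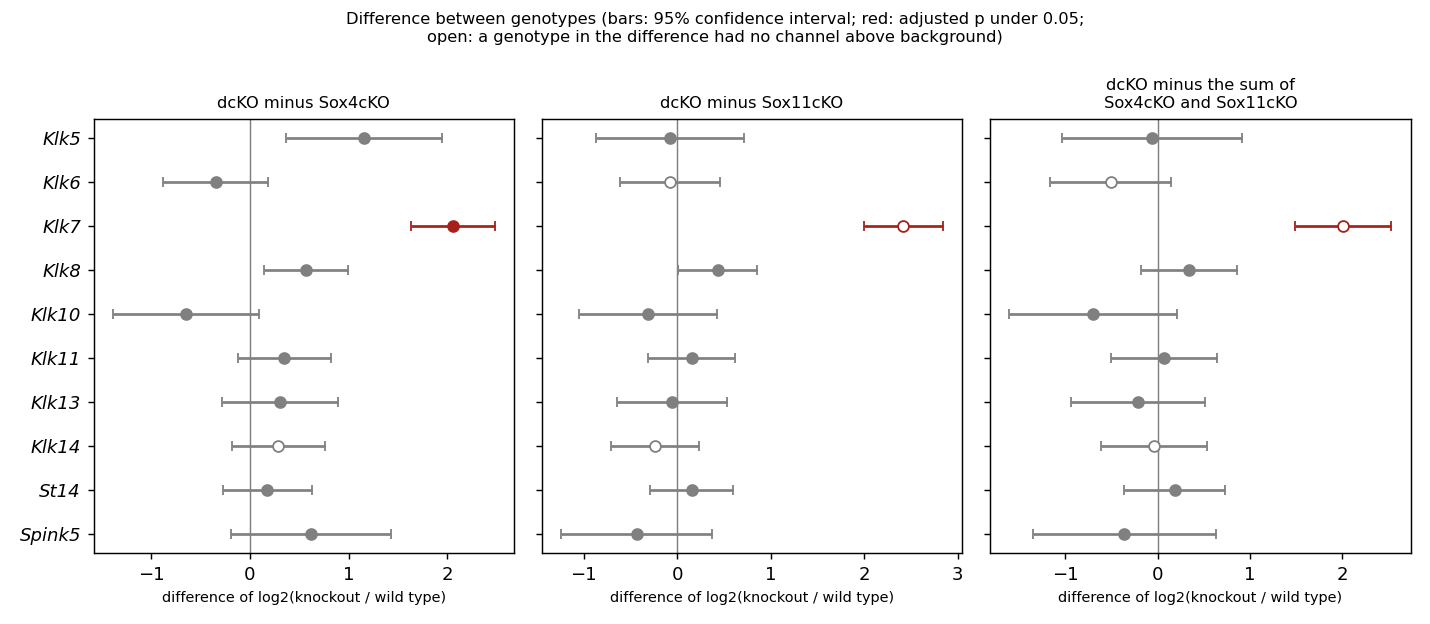
Differences between genotypes in log2(knockout/wild type) are drawn with 95% confidence intervals for the 10 members, in 3 panels. Red marks an adjusted p below 0.05 and open symbols a genotype with no channel above background. Klk7 is the red point in each panel, at 2.05, 2.42 and 2.01, and it is open in the panels that use Sox11cKO.

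The wild-type samples themselves differed strongly between genotypes' arrays for several members. This comparison of the wild-type levels on the Sox11cKO arrays with those on the other arrays was added after the values had been seen. Klk5 read 9.71 and 8.18 in the wild type of the Sox11cKO arrays and between 11.69 and 12.68 in the other 4 wild-type samples, so the groups did not overlap. The fitted difference was -3.21, 9.25-fold lower (limma adjusted p = 0.000833). Klk7 was not well above background in these samples, at least 3.72-fold below the mean of the others (adjusted p = 0.00216).

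Klk13 (-1.40, adjusted p = 0.00933), Spink5 (-1.51, adjusted p = 0.0306) and Klk8 (-1.16, adjusted p = 0.00562) were lower as well in limma's fit. In all, 5 of the 10 members passed lower and 0 higher, where 1.35% of all probes passed lower and 0.584% higher. Klk11 differed by -0.63 (adjusted p = 0.0736), Klk10 by -0.56 (adjusted p = 0.261) and St14 by -0.19 (adjusted p = 0.602). Klk6 was not well above background in these samples, at least 1.41-fold below the mean of the others, and did not pass (adjusted p = 0.182). Without the replicate block 3 of the 10 members passed lower, as Klk13 and Spink5 no longer did (adjusted p = 0.0682 and 0.0950). Without the wild type of Sox11cKO replicate 2, Spink5 no longer passed (-0.85, adjusted p = 0.0709), nor without dcKO replicate 2 (-1.33, adjusted p = 0.0775).

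Of 10 suprabasal and late epidermal markers, 3 passed lower in these samples (Casp14, Hrnr and Ivl) and 0 higher, and of 6 basal markers 0 passed. Lor (-0.30, limma adjusted p = 0.600), Krt1 (-0.76, adjusted p = 0.180) and Krt10 (-0.60, adjusted p = 0.258) did not pass. Of the 45 other genes of the desquamation cascade described further on, 10 passed lower and 1 (Dsc2) higher. Klk9 differed by -2.76 (limma adjusted p = 0.000392), Cdsn by -4.55 (adjusted p = 0.00375), involucrin (Ivl), a cornified envelope protein, by -2.64 (adjusted p = 0.00802), and Dsc1 by -1.13 (adjusted p = 0.00933), while Dsg1a, at -0.52, did not pass (adjusted p = 0.0941). Krt5 differed by -0.12 (adjusted p = 0.758) and Krt14 by -0.15 (adjusted p = 0.715). Of 4 red blood cell markers 3 passed lower (Alas2, Hba-a1 and Hbb-bt), as did Csf1r of 5 immune and Lhx2 of 5 hair follicle bud markers. Muscle, blood vessel, melanocyte and sex markers did not pass. The summed level of 6 markers of the periderm, the flat embryonic layer over the epidermis that is shed before birth, was 15010 and 14390 intensity units in the wild type of the Sox11cKO arrays and between 7784 and 9380 in the other wild-type samples, and 4 of the 6 passed higher. The summed level of 7 dermal fibroblast markers was 6219 and 7482 in the former and between 7780 and 21880 in the latter. Their median levels overlapped, at 7.15 and 8.92 in the former and between 7.59 and 11.09 in the latter, and 0 of the 7 passed. Xist was detected in knockout and wild type alike on the Sox4cKO and Sox11cKO replicate 2 arrays, and it stayed at background elsewhere. Ddx3y, a Y-linked gene, was detected on the other 4 arrays. The low wild-type samples of Sox11cKO thus held both sexes by these genes (Klk5 at 9.71 on the Ddx3y array and 8.18 on the Xist array), as did the others (12.20 on the Xist array and 11.69 to 12.68 on the Ddx3y arrays). The part of the animals' parentage and exact stage within E16 was not tested.

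**Figure D5:**
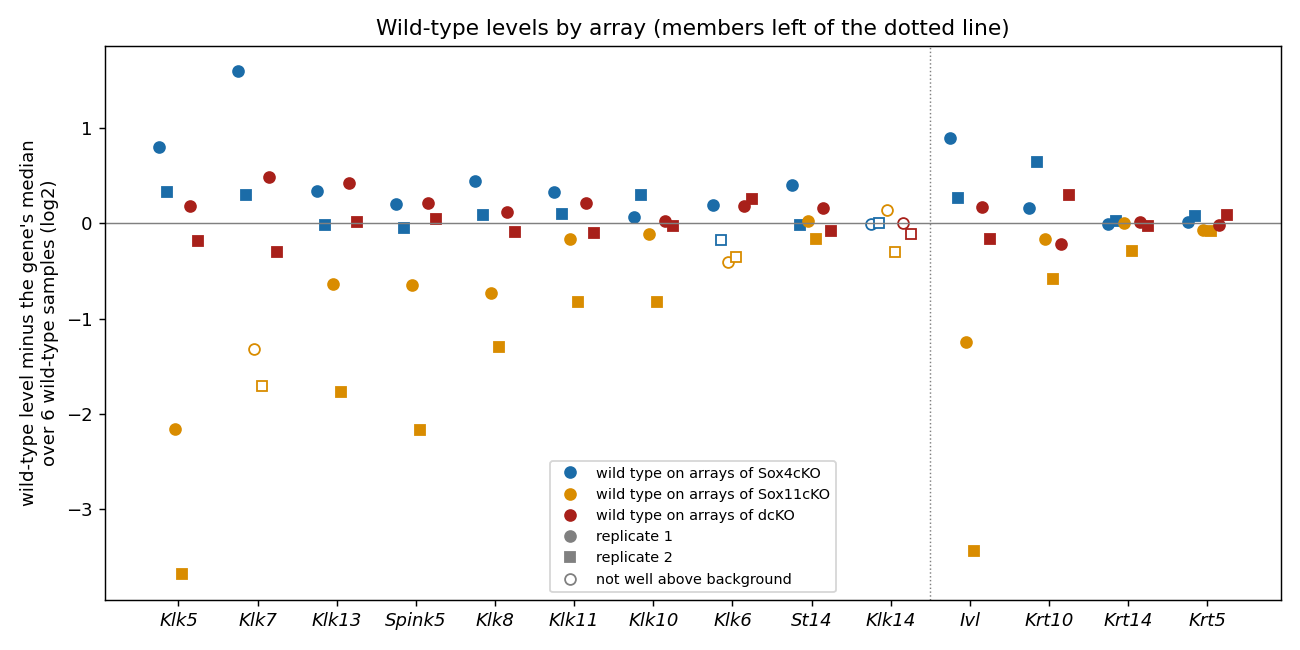
For each gene the wild-type level of each sample is drawn as its difference in log2 from the gene's median over the 6 wild-type samples, coloured by the knockout on the same array, with members left of the dotted line. Orange symbols of the Sox11cKO arrays lie low for Klk5, Klk7, Klk13, Spink5 and Klk8, and near 0 for Krt5 and Krt14.

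The rest of the desquamation cascade was described from a list of 45 genes with a probe, of which 13 were never well above background and 25 were above it on all 6 arrays. In dcKO 6 of the 45 rose and 0 fell, against 0.524% and 0.309% of all probes. Of 6 other kallikreins, Klk9 rose. Of 16 other proteases, 3 rose: Prss8, which encodes prostasin, by 0.99 (limma adjusted p = 0.0112), the transmembrane serine protease gene Tmprss11f by 1.24 (adjusted p = 0.00387) and Ctsl, which encodes the lysosomal protease cathepsin L, by 0.91 (adjusted p = 0.0216). A second probe of Prss8 read 0.53 (adjusted p = 0.180) and a second of Tmprss11f 0.90 (adjusted p = 0.0571). Klk9 also changed more in dcKO than in Sox4cKO by 1.40 (adjusted p = 0.0401) and than in Sox11cKO by 1.64 (adjusted p = 0.0151). The count depended on the settings, at 12 genes with a normexp offset of 50, 0 with the scanner software's log ratio and 2 or 3 when a dcKO array was left out.

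Of 10 other inhibitors, Serpina12, which encodes the serpin vaspin, rose. Its wild-type channel was above background on neither dcKO array, and the knockout was at least 2.70-fold higher (limma adjusted p = 0.00336). Cst6, which encodes the cathepsin inhibitor cystatin M/E, changed by 0.75 and 0.95 (adjusted p = 0.139). Spint1 and Spint2, whose products inhibit matriptase, changed by 0.03 and -0.14 in the mean (adjusted p = 0.982 and 0.802).

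Of 13 substrates and receptors, Il18, a cytokine made as a precursor by keratinocytes, rose by 3.40 and 3.06 (mean 3.23, limma adjusted p = 0.0326). Il18 changed by -0.01 and -2.48 in Sox4cKO and by 0.18 and 1.98 in Sox11cKO, so its replicates lay far apart there. Cdsn changed by 1.43 and 2.11 (mean 1.77, adjusted p = 0.168), Dsc1 by 0.45 and 0.79 (adjusted p = 0.0849) and Dsg1a by 0.32 and 0.45 (adjusted p = 0.360). F2rl1, which encodes the receptor PAR2 that kallikreins can cleave, was above background in no dcKO channel. In Sox4cKO and Sox11cKO, 0 of the 45 genes passed in limma. An unadjusted p below 0.05 was found for 6 of the 45 in Sox4cKO, 13 in Sox11cKO and 21 in dcKO, against 6.18%, 7.05% and 9.89% of all probes. The medians over the list were 0.07 and 0.12 against 0.22 in dcKO.

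Markers of other layers moved in dcKO beside Klk7. Of 10 suprabasal and late epidermal markers all 10 were higher by sign and 1 passed, Flg2 at 2.90 (limma adjusted p = 0.00998). Of 6 periderm markers all were lower and 3 passed: Krt17 (-1.37, adjusted p = 0.00507), Krt19 (-1.40, adjusted p = 0.0177) and Krt4 (-1.50, adjusted p = 0.00174). The summed periderm level was 8017 and 8696 intensity units in the wild type and 3654 and 3791 in dcKO. Of 7 dermal fibroblast markers, 6 were lower by sign, with a median change over the list of -1.90 (-1.79 and -1.70 on the 2 arrays). None of them passed in limma, and 5 of the 7 had an unadjusted p below 0.05. Dcn differed from the rest in sign (0.35, adjusted p = 0.484), and the summed level was 12540 and 8590 in the wild type and 9295 and 7713 in dcKO. Of 6 basal markers, 0 passed. Krt1 (0.64, adjusted p = 0.487), Krt10 (0.63, adjusted p = 0.467) and Lor (0.42, adjusted p = 0.623) did not pass, and of 2 Ivl probes 1 did (1.36, adjusted p = 0.0439) and the other read 1.25 (adjusted p = 0.136). In Sox11cKO 10 of 10 suprabasal and late markers were higher (median 0.47, against 0.63 in dcKO). There 5 of 6 periderm markers were lower (median -1.15, against -1.17 in dcKO), and 0 in either list passed. By sign these shifts were thus shared with Sox11cKO, but its 2 arrays differed in size. The suprabasal and late median was 0.13 and 0.81 on them, and the periderm median was -1.51 and -0.58. The summed periderm level in Sox11cKO was 15010 and 14390 in the wild type, above all other wild-type samples. In the Sox11cKO knockouts it was 8097 and 10720, against 3654 and 3791 in dcKO. No marker of either list passed in the difference of dcKO from Sox11cKO. In Sox4cKO 5 of 6 periderm markers were higher (median 0.48). Their summed level went the other way, at 7784 and 9380 in the wild type and 7378 and 8341 in the knockout. The fibroblast median in Sox4cKO was -3.42 and 0.98 on the 2 arrays. Whether the share of these layers bears on the Klk7 change was not tested.

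The genes whose pattern over the 6 arrays was most like that of Klk7 were Nt5c3, Lnx1 and Lce1j, of 11159 candidate genes. Their root mean square difference from Klk7 in log2(knockout/wild type) was 0.36, 0.38 and 0.40. Lce1j, a late cornified envelope gene, read 2.73 and 2.96 in dcKO and between -0.36 and 0.23 on the other arrays. As Klk7 itself was not above background on the Sox11cKO arrays, likeness there rests on an unmeasured change.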

How the data were processed

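Epidermal RNA was hybridised in 2 colours, knockout against wild-type littermate, to 6 Agilent SurePrint G3 arrays. The authors read the spots with Agilent Feature Extraction 11.0.1.1, and the deposited scanner files hold the intensity of each spot in Cy5 and Cy3, not normalized, with Feature Extraction's log10 ratio. The deposited series table was found to hold log2 ratios of knockout over wild type, corrected by the authors with normexp (offset 16) and loess in limma; recomputed from the scanner files, the ratios had the same slope and direction. The colour correction named in the methods was not in the table.

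Here limma 3.58.1 in R 4.3.3 was fitted to all 55681 probes, with 1 coefficient per genotype and 1 for the dye, which is also the replicate number, and p-values were adjusted by the Benjamini-Hochberg method. A call needed an adjusted p below 0.05, and the probes called also a log2 change above 1.5. Residual degrees of freedom were 2, so the prior (6.65 degrees of freedom) carried much of the error. Same-numbered arrays deviated together (correlations of 0.26, 0.31 and 0.33). Channel levels were scaled between arrays (Aquantile), and wild-type levels were fitted over the 6 wild-type samples. Between 38.9% and 43.6% of the spots were well above background, 0 spots were saturated, and all arrays lay on 1 slide with 1 scan date. The number of arrays limited the precision, and nothing in the labels says how many animals made a sample, so p-values measure the spread between these samples only.

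The members, lists and tests were chosen with earlier results of these data known. Named genes were the 10 members, list genes that passed in any comparison, a preset set of others, and the 3 genes most like a member that passed. The scripts were tested on simulated data. Alternatives were the offset, background subtraction, the scanner log ratio, the ComBat model in place of the dye coefficient, scaling, a filter on dim probes, the dye coefficient and leaving out each array. Promoter windows came from RefSeq on GRCm38.p6, and the windows of Spink5 and St14 and all protein sequences were not used here.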

Additional observations from a re-analysis of the deposited data

Results flagged for a closer look

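Among the 6 wild-type samples, Klk10 and Spink5 each had a lowest sample that stood apart, with a gap to the nearest other sample of 0.636 of the whole range for Klk10 and 0.639 for Spink5, past Dixon's limit. In both genes this was the wild type of Sox11cKO replicate 2, at 6.76 for Klk10 and 9.55 for Spink5. Chance flags about 1 in 20 groups.

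The Klk7 change differed between genotypes in the limma fit: dcKO exceeded Sox4cKO by 2.05, Sox11cKO by 2.42 and the sum of both by 2.01 on the log2 scale, and both dcKO arrays showed the rise. The last 2 rest on arrays where Klk7 was not well above background.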

How the results depend on the processing

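The rise of Klk7 in dcKO kept its direction under all alternatives run and passed in all but the Feature Extraction log ratio (2.82, adjusted p = 0.333), with 2.11 at a normexp offset of 50 as the lowest change. With that log ratio the calls fell to 0 probes in Sox4cKO and dcKO, 0 members in dcKO and in the differences of dcKO from Sox4cKO, from Sox11cKO and from their sum, and 0 desquamation genes, and the differences of Klk7 were 2.45 from Sox4cKO, 1.74 from Sox11cKO and 1.36 from the sum; the cause was not tested. Members passing in dcKO numbered 3 with offset 50, 3 without background subtraction, 3 with ComBat in place of the dye coefficient, 2 with dim probes removed, and 1 to 2 with an array left out. Desquamation genes passing in dcKO numbered 12, 11 and 13 under the first 3 of these and 2 to 8 with an array left out. In Sox4cKO (3 probes called) the count was 0 with offset 50, 1 without background subtraction, 0 with dim probes removed and 0 to 39 with an array left out. In Sox11cKO (0 called) it was 1, 7 and, with an array left out, 1 to 40, and 0 to 1 members passed. With an array left out, 0 to 1 members passed in the difference of dcKO from the sum.

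Dropping the replicate block changed the probes called in dcKO from 115 to 103, left Klk7 with an adjusted p of 0.000107, and in the wild-type comparison 3 members passed in place of 5; no other call of a member changed. The sign turned under the Feature Extraction log ratio for Klk5 in Sox4cKO (0.0019), Klk14 in Sox11cKO (-0.041) and dcKO (-0.059), St14 in Sox11cKO (0.054) and the Klk7 difference of Sox4cKO from Sox11cKO (-0.71). With an array left out, the Sox4cKO changes ranged from -0.54 to 0.52 for Klk5, -0.028 to 0.22 for Klk8, -0.27 to 1.05 for Klk10, -0.12 to 0.29 for Klk11, -0.31 to 0.63 for Klk13, -0.39 to 0.24 for Spink5 and -0.098 to 0.042 for St14. The Sox11cKO changes ranged from -0.47 to 0.57 for Klk10 and -0.14 to 0.14 for St14 (the Klk7 probe, near background there, gave -0.098 to 0.19, which measures no change), and the dcKO changes from -0.18 to 0.34 for Klk6, -0.12 to 0.31 for Klk14 and -0.060 to 0.36 for St14. A fit of 1 genotype alone could not be made for lack of residual degrees of freedom, and another probe could not be tried since each member had 1. Signals near background limit Klk6, Klk7 and Klk14.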
